A study of Mus musculus with 13 samples.

Results

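Endothelial and angiogenic genes were followed through the 3 treatment groups as a set of 10 listed genes out of 21868 genes in the normalized counts table. The set held the ligands Vegfa, Vegfb and Angpt1, the receptors Kdr, Flt1, Tek, Tie1 and Aplnr, and the endothelial junction genes Pecam1 and Cdh5. The genes were listed by name with earlier results of these data known, and no threshold on their values entered the list. All 10 passed the filter on low values and were among the 12303 genes tested. RNA came from the gastrocnemius, a calf muscle, of 13 obese male mice, C57BL/6 in the labels and C57BL/6N in the legend of the RNA sequencing data. The mice were 7 weeks old at the start and, after a week of acclimatization, received a diet with 60 kcal% fat for 15 to 17 weeks. They were then moved to standard chow. All 3 groups shared this diet history, so no group had stayed on chow throughout or on the high-fat diet to the end. During 3 weeks on chow, 5 mice received phosphate-buffered saline as vehicle, 5 received the GLP-1 receptor agonist semaglutide at 30 nM/kg/day intraperitoneally, and 3 received the same semaglutide dose and drank water that held 0.114 g/mL ketone ester. The treatment labels of these groups read Vehicle+placebo, Semaglutide+placebo and Semaglutide+ketone ester. No group received ketone ester without semaglutide. Mice are named here by the numbers in their labels, 1 to 5 for vehicle, 13 to 17 for semaglutide, and 19, 21 and 22 for semaglutide + ketone ester.

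The vascular endothelial growth factors are secreted ligands that bind receptor tyrosine kinases on endothelial cells. VEGFA signals mainly through KDR (VEGFR-2) to drive sprouting and permeability, while FLT1 (VEGFR-1) binds VEGFA with high affinity and little signalling and is also the receptor of VEGFB, a ligand that skeletal muscle and heart make in abundance. Angiopoietin 1, made largely by perivascular and stromal cells, activates the receptor TIE2 (gene Tek) and stabilises vessels, and TIE1 is its coreceptor. APLNR, the apelin receptor, is a G protein-coupled receptor of endothelium and some other cells, and PECAM1 and VE-cadherin (gene Cdh5) are adhesion molecules at endothelial junctions that are often used as endothelial markers.

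Between 15319471 and 23498162 reads were counted on genes per mouse, and between 32 and 5221 of them fell on any one of the 10 genes. All 7 skeletal muscle fibre markers and all 30 further pan-endothelial genes that were followed had counts above 0 in every mouse. Semaglutide mouse 13 stood apart from the other semaglutide mice across the transcriptome (chi-square per degree of freedom of its read counts against theirs 90.4 to 153, and at most 42.2 among the others), and vehicle mouse 1 had fewer fibroblast and tendon transcripts than the other vehicle mice. Results are also given without these mice where their values differed. All libraries carried the same batch date.

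Levels were set side by side per kilobase of all annotated exon sequence of a gene, which allows only a rough comparison between genes. The length of the transcripts expressed in this muscle was not known, and the order depends on it. On this scale the ligands Vegfb and Vegfa had the highest levels of the 10 in vehicle mice, 1156 ± 95.5 and 999 ± 102 normalized counts per kb (SD, n = 5). Cdh5 (298 ± 28.1) and Pecam1 (181 ± 18.5) followed, and then the receptors Tie1 (109 ± 15.3), Flt1 (97.5 ± 16.3), Tek (77.0 ± 10.1) and Kdr (75.3 ± 8.48). Angpt1 (58.1 ± 9.11) and Aplnr (29.5 ± 4.71) were lowest. Neighbours in this order whose ranges over the 5 mice overlapped were Vegfb and Vegfa, Tie1 and Flt1, Flt1 and Tek, Tek and Kdr, and Kdr and Angpt1.

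Group differences are given as log2 fold changes of (normalized count + 1) from limma, with Benjamini-Hochberg adjusted p-values computed across the 12303 genes tested and a threshold of 0.05. A change is written as a rise or fall only where it passed that threshold. In semaglutide compared with vehicle mice, 3 of the 10 genes fell (Vegfb, Angpt1 and Aplnr) and 0 rose, while 25.1% of all genes tested differed, 11.9% higher and 13.2% lower. At an unadjusted limma p under 0.05, Tek was the 1 gene of the set that was higher, and Kdr was lower along with the 3 called. Neither edgeR nor DESeq2 called a rise. In semaglutide + ketone ester compared with semaglutide mice, 4 of the 10 rose (Vegfb, Angpt1, Aplnr and Kdr) and 0 fell, against 18.4% of all genes that differed, 9.09% higher and 9.3% lower. At an unadjusted limma p under 0.05, Cdh5 was higher as well and 0 were lower. These 2 comparisons share the 5 semaglutide mice, which by itself favours opposite signs. Between semaglutide + ketone ester and vehicle mice 0 of the 10 differed by limma, edgeR or DESeq2, and 0 had an unadjusted limma p under 0.05, where 0.236% of all genes differed. Over the set, the median log2 fold change was -0.13 for semaglutide vs vehicle and 0.21 for semaglutide + ketone ester vs semaglutide, while the median over all genes tested was -0.0029 and -0.00024.

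**Figure D1:**
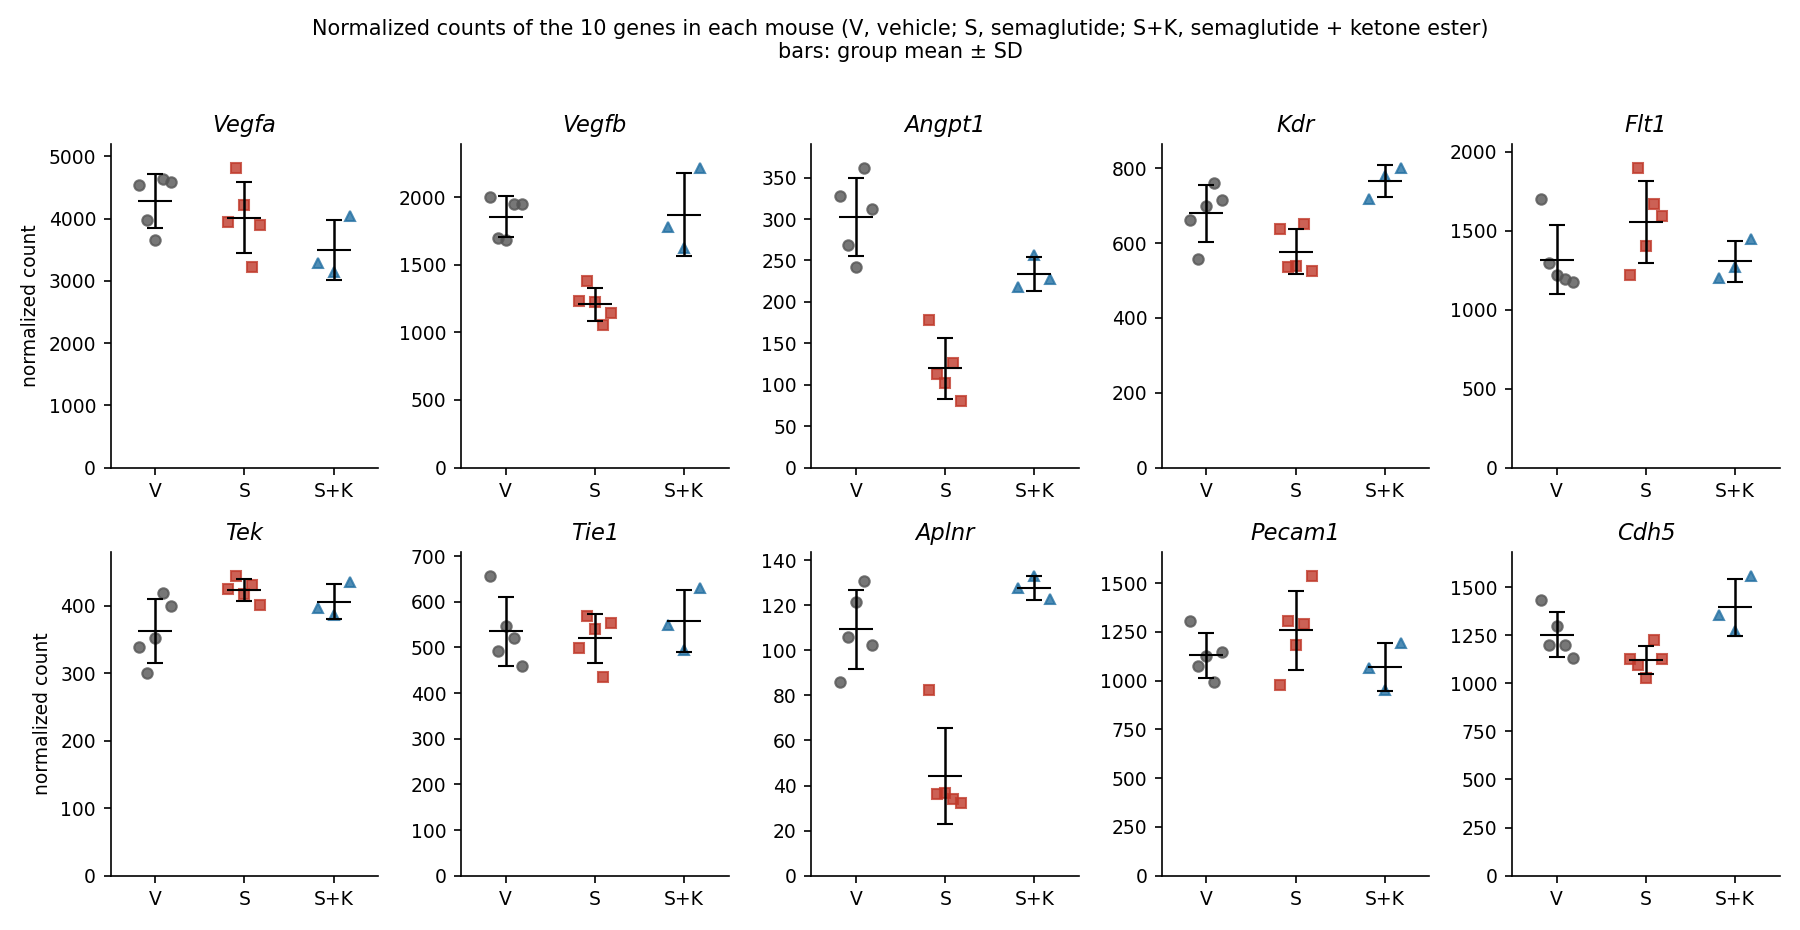
Normalized counts (vertical axes, starting at 0) of the 10 genes in each of 13 mice, by group, with group means ± SD as bars. Vegfb, Angpt1 and Aplnr were lower in all 5 semaglutide mice than in any vehicle or semaglutide + ketone ester mouse, whereas groups overlapped for Vegfa, Flt1, Tek, Tie1 and Pecam1. The share of all genes tested that separated in this way was not counted.

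Vegfb, the growth factor that binds FLT1 and is linked to fatty acid handling by endothelium, lies on the minus strand of chromosome 19 (mm10, chr19:6982473-6987651). Its normalized counts in vehicle mice 1 to 5 were 2000, 1695, 1683, 1949 and 1949. In semaglutide mice 13 to 17 they were 1232, 1379, 1221, 1051 and 1145, and in semaglutide + ketone ester mice 19, 21 and 22 they were 1777, 1621 and 2214. The lowest vehicle mouse and the lowest semaglutide + ketone ester mouse both exceeded the highest semaglutide mouse. Vegfb fell 1.54-fold, from 1855 ± 153 (SD, n = 5) in vehicle to 1206 ± 121 (SD, n = 5) in semaglutide mice (log2 -0.62 ± 0.11 SE, limma adjusted p = 0.0019), and was 1871 ± 307 (SD, n = 3) with the ketone ester, 0.63 ± 0.12 above semaglutide (limma adjusted p = 0.0060). In such whole-muscle RNA, fewer cells of a type and less RNA per cell cannot be told apart.

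Vegfa, the main angiogenic ligand, lies on the minus strand of chromosome 17 (chr17:46016993-46032369), and none of its differences passed the test on the deposited scale. Its normalized counts were 4534, 3976, 3664, 4637 and 4597 in vehicle mice 1 to 5, 3940, 4812, 4222, 3221 and 3894 in semaglutide mice 13 to 17, and 3294, 3141 and 4040 in semaglutide + ketone ester mice 19, 21 and 22. The 3 groups overlapped. The log2 fold change was -0.097 (95% interval -0.36 to 0.16, limma adjusted p = 0.58) for semaglutide vs vehicle, -0.20 (-0.50 to 0.099, adjusted p = 0.33) for semaglutide + ketone ester vs semaglutide, and -0.30 (-0.60 to 0.0016, adjusted p = 0.48) for semaglutide + ketone ester vs vehicle. When columns were rescaled to equal totals, the first of these turned to 0.077, and the second was -0.44 and passed (limma adjusted p = 0.018).

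The ratio of Vegfa to Vegfb, taken within each mouse and so independent of library scaling, separated all 3 groups. It was 2.31 ± 0.083 in vehicle mice (SD, n = 5, range 2.18 to 2.38), 3.32 ± 0.18 in semaglutide mice (SD, n = 5, range 3.07 to 3.49) and 1.87 ± 0.058 in semaglutide + ketone ester mice (SD, n = 3, range 1.83 to 1.94). The ratio was formed after the values of both genes were known and was not tested.

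The 250 bases upstream of the RefSeq start sites of these 2 ligands (GRCm38.p6, the mm10 assembly) are printed because Vegfb passed the test under semaglutide and Vegfa did not. The stretch before Vegfb (chr19:6987652-6987901, minus strand) lies between Vegfb and the neighbouring gene Dnajc4 in the annotation, and that before the first Vegfa start is at chr17:46032378-46032627, minus strand. Both are written 5′ to 3′ in lower case, and capitals mark matches on either strand to AGGTCA (the half-site of many nuclear receptors, among them the estrogen-related receptors), GGGCGG (the GC box), GGAAG (the core of ETS factor sites) and ACGTG (the core of hypoxia response elements). Where matches abut they appear as 1 run of capitals.
Vegfb: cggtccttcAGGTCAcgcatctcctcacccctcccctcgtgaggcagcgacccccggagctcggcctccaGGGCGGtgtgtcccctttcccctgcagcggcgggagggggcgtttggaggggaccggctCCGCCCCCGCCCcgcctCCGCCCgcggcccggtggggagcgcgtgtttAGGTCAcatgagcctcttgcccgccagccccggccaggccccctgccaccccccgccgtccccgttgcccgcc
Vegfa: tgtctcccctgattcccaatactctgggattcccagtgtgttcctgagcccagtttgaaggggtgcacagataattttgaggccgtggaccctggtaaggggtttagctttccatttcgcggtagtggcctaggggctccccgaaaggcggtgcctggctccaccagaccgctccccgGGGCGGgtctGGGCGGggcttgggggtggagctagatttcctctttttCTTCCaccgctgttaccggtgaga
The Vegfb stretch held 2 AGGTCA matches, which begin 241 and 73 bases before the start, and 4 GC boxes. The first Vegfa stretch held 0 AGGTCA matches, 2 GC boxes and 1 GGAAG. Neither held ACGTG, which occurred once before the second Vegfa start, not shown. Of 32851 promoters searched in the same 250-base window, 14.0% held AGGTCA, 32.7% GGGCGG, 64.1% GGAAG and 16.6% ACGTG. GC content was 76.4% for Vegfb and 59.2% for Vegfa, where the median of all promoters was 52.4%. A match of this kind is a description of letters and was not tested for binding. Entries were found for 6 of the 10 genes, and those of Kdr, Flt1, Tek and Tie1 held no AGGTCA. Pecam1, Cdh5, Angpt1 and Aplnr had no entry. Angpt1 and Aplnr, which also fell under semaglutide, were therefore not searched. Esrra, the gene of ERRα, a nuclear receptor that binds sites with the AGGTCA half-site, was 1700 ± 97.4 (SD, n = 5) in vehicle, 1022 ± 305 (SD, n = 5) in semaglutide and 1632 ± 229 (SD, n = 3) in semaglutide + ketone ester mice. It fell by 0.78 on the log2 scale under semaglutide (limma adjusted p = 0.0071) and was 0.72 higher with the ketone ester than with semaglutide alone (adjusted p = 0.026). The second call was lost with equal totals, with only these 2 groups fitted, and without any one of mice 15, 17, 19, 21 or 22, where the value was between 0.48 and 0.80. Whether Esrra has a part in the level of Vegfb was not tested.

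Angpt1, the TIE2 agonist, on chromosome 15 (chr15:42424723-42676977, minus strand), fell furthest of the ligands. In vehicle mice 1 to 5 its normalized counts were 328, 268, 243, 361 and 312. They were 178, 113, 102, 126 and 79.8 in semaglutide mice 13 to 17, and 217, 256 and 227 in semaglutide + ketone ester mice 19, 21 and 22. All 5 semaglutide mice lay below every other mouse, and mouse 13 was the highest of them. The level went from 303 ± 47.4 (SD, n = 5) to 120 ± 36.7 (SD, n = 5) under semaglutide, a 2.58-fold fall (log2 -1.37 ± 0.18 SE, limma adjusted p = 0.00053), and to 234 ± 20.1 (SD, n = 3) with the ketone ester, 1.00 ± 0.21 above semaglutide on the log2 scale (limma adjusted p = 0.0085). Semaglutide + ketone ester and vehicle mice overlapped, with a difference of -0.36 (95% interval -0.82 to 0.0996, limma adjusted p = 0.63). Without mouse 13 the semaglutide fall was 1.52 on the log2 scale (limma adjusted p = 4.5e-05). The annotation holds an antisense gene, Gm17473, over 737 bases of Angpt1. The libraries were stranded, but whether the counting used strand is not given in the sources used here.

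Tek, which encodes the angiopoietin receptor TIE2, was not lower where its ligand was. Its normalized counts were 340, 301, 353, 419 and 401 in vehicle mice 1 to 5, 426, 444, 418, 431 and 401 in semaglutide mice 13 to 17, and 397, 387 and 436 in semaglutide + ketone ester mice 19, 21 and 22. The semaglutide values were closely grouped near the top of the vehicle range and overlapped it. Tek had a log2 fold change of 0.23 ± 0.093 (SE) for semaglutide vs vehicle, which did not pass (limma adjusted p = 0.085, 95% interval 0.032 to 0.44). With columns rescaled to equal totals it passed at 0.41. Per mouse, the ratio of Tek to Angpt1 was 1.21 ± 0.16 in vehicle (SD, n = 5), 3.77 ± 0.97 in semaglutide (SD, n = 5) and 1.75 ± 0.22 in semaglutide + ketone ester mice (SD, n = 3), and the 3 groups did not overlap. This ratio too was formed after the values of both genes were known and was not tested. The share of other gene pairs that separate in this way was not counted.

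Tie1, the orphan coreceptor of TIE2, ranged from 459 to 656 normalized counts in vehicle mice, from 436 to 569 in semaglutide mice and from 495 to 631 in semaglutide + ketone ester mice. The groups overlapped throughout. The log2 fold changes of Tie1 were -0.038 for semaglutide vs vehicle, 0.10 for semaglutide + ketone ester vs semaglutide and 0.065 for semaglutide + ketone ester vs vehicle (limma adjusted p = 0.84, 0.62 and 0.93). With equal totals the first became 0.14 and the second -0.13, and with array weights the first became 0.016.

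**Figure D2:**
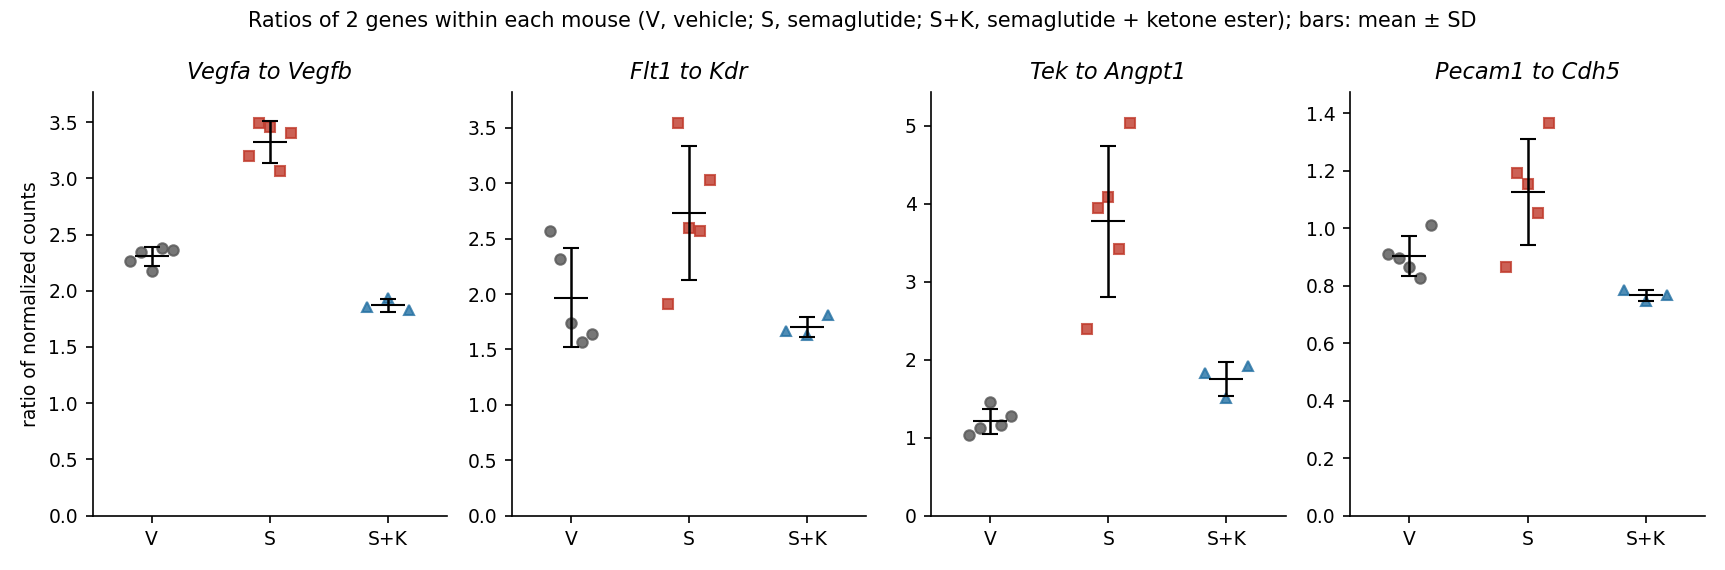
Ratios of the normalized counts of 2 genes within each mouse (vertical axes, starting at 0), by group, with means ± SD as bars. The ratio of Vegfa to Vegfb separates the 3 groups, and that of Tek to Angpt1 is between 2.39 and 5.03 in semaglutide mice against 1.03 to 1.45 in vehicle mice.

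Kdr and Flt1, the receptors VEGFR-2 and VEGFR-1 on chromosome 5, had log2 fold changes of opposite sign. Normalized counts of Kdr were 661, 559, 700, 762 and 716 in vehicle mice 1 to 5, 636, 535, 540, 651 and 525 in semaglutide mice 13 to 17, and 717, 780 and 800 in semaglutide + ketone ester mice 19, 21 and 22. Each semaglutide + ketone ester mouse was above every semaglutide mouse, while semaglutide and vehicle mice overlapped. Kdr rose from 577 ± 60.7 (SD, n = 5) with semaglutide to 766 ± 43.7 (SD, n = 3) with semaglutide + ketone ester, 0.41 ± 0.12 (SE) on the log2 scale (limma adjusted p = 0.030). This call was lost with no filter on low values, with equal totals (0.17), with only these 2 groups in the fit, and without any one of mice 14, 15, 17, 21 or 22, when the value was between 0.38 and 0.40. For semaglutide vs vehicle the Kdr value was -0.23 (95% interval -0.45 to -0.015, limma adjusted p = 0.11), and it passed without vehicle mouse 2 (-0.30) and with array weights (-0.29).

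Flt1 was 1702, 1293, 1219, 1194 and 1177 normalized counts in vehicle mice 1 to 5, 1219, 1896, 1402, 1671 and 1591 in semaglutide mice 13 to 17, and 1198, 1271 and 1447 in semaglutide + ketone ester mice 19, 21 and 22. Vehicle mouse 1 was high and semaglutide mouse 13 low within their groups, and all groups overlapped. The log2 fold changes of Flt1 were 0.24 ± 0.14 (SE) for semaglutide vs vehicle and -0.24 ± 0.16 (SE) for semaglutide + ketone ester vs semaglutide (limma adjusted p = 0.22 and 0.30). With equal totals they were 0.41 and -0.48 and both passed. Per mouse, the ratio of Flt1 to Kdr was 1.97 ± 0.45 in vehicle (SD, n = 5), 2.73 ± 0.60 in semaglutide (SD, n = 5) and 1.70 ± 0.094 in semaglutide + ketone ester mice (SD, n = 3), and semaglutide overlapped with vehicle but not with semaglutide + ketone ester.

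Aplnr, the apelin receptor on chromosome 2 (chr2:85136225-85139923, plus strand), had the lowest level of the 10, and of the 10 it differed most between semaglutide + ketone ester and semaglutide. Its normalized counts were 85.8, 106, 121, 131 and 102 in vehicle mice 1 to 5. In semaglutide mice 13 to 17 they were 82.2, 36.1, 36.7, 34.0 and 32.1, and in semaglutide + ketone ester mice 19, 21 and 22 they were 128, 133 and 123. Mice 14 to 17 lay within a narrow range, and mouse 13 was close to the lowest vehicle mouse. Aplnr fell from 109 ± 17.4 (SD, n = 5) to 44.2 ± 21.3 (SD, n = 5) under semaglutide, a 2.58-fold fall (log2 -1.37 ± 0.22 SE, limma adjusted p = 0.0016). It was 128 ± 5.15 (SD, n = 3) with the ketone ester, 3.04-fold above semaglutide (log2 1.61 ± 0.26 SE, limma adjusted p = 0.0027). Without mouse 13 these were -1.61 and 1.85 (limma adjusted p = 9.9e-06 and 1.2e-05). The reads behind Aplnr numbered between 32 and 118 per library, fewer than for any other gene of the set.

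The log2 fold changes of the 2 junction genes differed in sign on the deposited scale, where none passed the test. With equal totals both were positive for semaglutide vs vehicle, 0.32 for Pecam1 and 0.015 for Cdh5. Pecam1 was 1305, 1076, 1126, 990 and 1146 normalized counts in vehicle mice 1 to 5, 975, 1306, 1184, 1291 and 1534 in semaglutide mice 13 to 17, and 1063, 951 and 1195 in semaglutide + ketone ester mice 19, 21 and 22. All groups overlapped, with log2 fold changes of 0.15 ± 0.12 (SE) for semaglutide vs vehicle and -0.23 ± 0.14 (SE) for semaglutide + ketone ester vs semaglutide (limma adjusted p = 0.41 and 0.28). With equal totals the second passed at -0.46. Cdh5 was 1435, 1199, 1300, 1199 and 1133 in vehicle mice 1 to 5, 1128, 1095, 1028, 1226 and 1125 in semaglutide mice 13 to 17, and 1354, 1272 and 1556 in semaglutide + ketone ester mice 19, 21 and 22. Semaglutide + ketone ester mice lay above all semaglutide mice for Cdh5, whereas semaglutide and vehicle overlapped.

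The Cdh5 difference between semaglutide + ketone ester and semaglutide was 0.31 ± 0.10 (SE) on the log2 scale and narrowly missed the threshold (limma adjusted p = 0.052, 95% interval 0.090 to 0.53). It passed by edgeR (0.32, adjusted p = 0.032), by DESeq2 (0.32, adjusted p = 0.015), with limma's mean-variance trend, TMM factors, array weights or a higher filter, and without any one of mice 1, 13 or 16. With equal totals it was 0.075. For semaglutide vs vehicle Cdh5 was -0.16 (95% interval -0.35 to 0.034, limma adjusted p = 0.21), which turned to 0.015 with equal totals. The annotation holds an antisense gene, Gm29682, that shares 4249 bases with Cdh5.

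The receptors were also set against the mean of the log2 values of Pecam1 and Cdh5 in the same mouse, a level relative to 2 endothelial genes that does not depend on library scaling. Aplnr was -3.44 ± 0.34 on this scale in vehicle (SD, n = 5), -4.81 ± 0.66 in semaglutide (SD, n = 5) and -3.24 ± 0.21 in semaglutide + ketone ester mice (SD, n = 3), so that its difference under semaglutide, -1.36, was as large as on the deposited scale. Mouse 13 (-3.66) overlapped with the vehicle range of Aplnr on this scale (-3.98 to -3.05). For semaglutide relative to vehicle, Kdr was -0.23, Flt1 0.24, Tek 0.24 and Tie1 -0.032 on the relative scale, and each of these 4 overlapped between the groups. No test was made on this scale. The 2 reference genes did not keep a fixed ratio to each other. Pecam1 to Cdh5 was 0.90 ± 0.069 in vehicle (SD, n = 5, range 0.83 to 1.01) and 1.13 ± 0.18 in semaglutide mice (SD, n = 5, range 0.86 to 1.36). In semaglutide + ketone ester mice it was 0.77 ± 0.019 (SD, n = 3, range 0.75 to 0.78), below both other groups.

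**Figure D3:**
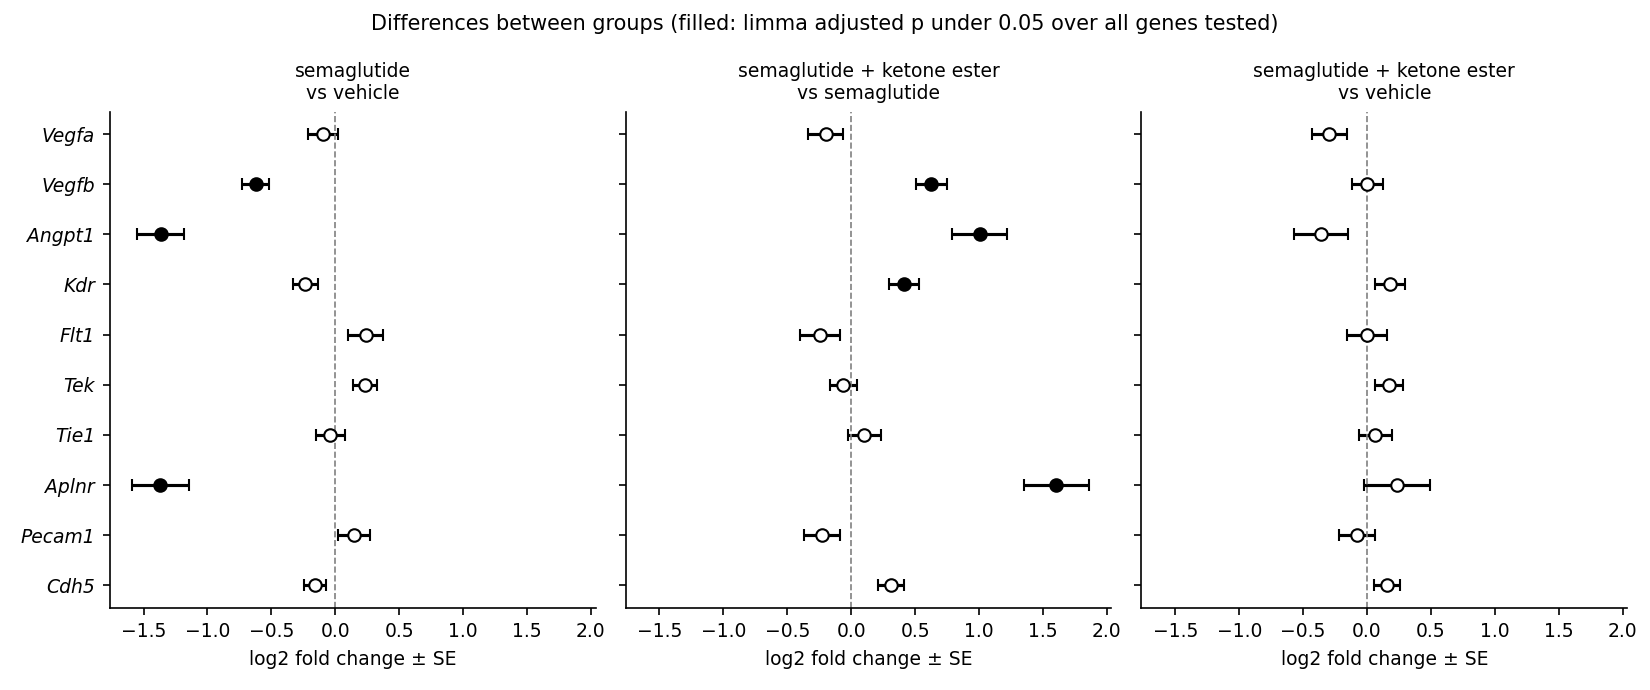
Log2 fold changes of normalized count + 1 (horizontal axes) with standard errors for the 10 genes in the 3 comparisons, with filled points where the limma adjusted p was under 0.05. Vegfb, Angpt1 and Aplnr are filled to the left for semaglutide vs vehicle and to the right for semaglutide + ketone ester vs semaglutide, Kdr is filled in the second comparison alone, and no point is filled for semaglutide + ketone ester vs vehicle.

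Rescaling the columns to equal totals moved the median of all genes by 0.17 for semaglutide vs vehicle and by -0.24 for semaglutide + ketone ester vs semaglutide. On that scale 5 of the 10 genes were called in the first comparison (3 lower, and Flt1 and Tek higher) and 6 in the second (3 higher, and Pecam1, Flt1 and Vegfa lower). Calls over all genes were also more numerous, 4187 and 4195 of 12319 tested. The deposited scale gave 3084 and 2262 of 12303. Of all genes called, 77.9% were then higher in the first comparison and 14.5% in the second, where the deposited scale gave 47.3% and 49.4%. Vegfb, Angpt1 and Aplnr were called in the same direction in these 2 comparisons on both scales and in all 24 alternative fits, 13 of which left out 1 mouse each.

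Beside the counts of the gene lists that follow, 11.9% of all genes tested were higher and 13.2% lower under semaglutide. With the ketone ester relative to semaglutide these shares were 9.09% and 9.3%. The share of all genes tested whose groups did not overlap was not counted. Of 6 other ligands, receptors and coreceptors of the VEGF family that were tested, 1 rose under semaglutide and 0 fell, and 1 fell with the ketone ester relative to semaglutide and 0 rose. The gene in both cases was Vegfd, a ligand of VEGFR-3. It ranged from 59.4 to 97.5 normalized counts in vehicle mice (median 78.0), from 118 to 426 in semaglutide mice (median 245) and from 101 to 108 in semaglutide + ketone ester mice (median 108). Semaglutide mice did not overlap with either other group. Vegfd rose 3.13-fold (log2 1.65 ± 0.27 SE, limma adjusted p = 0.0017) and was 1.21 lower on the log2 scale with the ketone ester (-1.21 ± 0.31 SE, adjusted p = 0.021). The latter call was lost with only those 2 groups fitted and without mouse 19, 21 or 22, with values between -1.23 and -1.18. The ratio of Vegfa to Vegfd was 55.3 ± 9.10 in vehicle (SD, n = 5), 18.3 ± 9.88 in semaglutide (SD, n = 5) and 32.9 ± 3.84 in semaglutide + ketone ester mice (SD, n = 3).

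Of 4 tested genes of the angiopoietin-TIE system outside the set, 1 fell under semaglutide, Ptprb, the endothelial phosphatase VE-PTP that acts on TIE2 (log2 -0.30 ± 0.098 SE, limma adjusted p = 0.041). That call was lost with no filter, with equal totals (-0.13), with only 2 groups fitted and without any one of 10 mice, that is, any mouse but 4, 13 or 19 (-0.33 to -0.22). Angpt2, the TIE2 ligand that often opposes angiopoietin 1, was between 26.6 and 115 normalized counts in vehicle, 38.9 and 70.9 in semaglutide and 37.4 and 51.7 in semaglutide + ketone ester mice, with a semaglutide vs vehicle value of -0.016 (limma adjusted p = 0.98). Angpt4 was below the minimum level. Of the apelin receptor's 2 ligands, Apln lay below the minimum, between 0.971 and 20.5 normalized counts, and Apela was at 0 in all 13 mice, which at these depths allows up to 1.96e-05% of a library's reads for counting error alone.

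Of 30 further pan-endothelial genes, 2 rose and 1 fell under semaglutide and their median log2 fold change was -0.023, and with the ketone ester relative to semaglutide 1 rose and 1 fell with a median of -0.015. Under semaglutide Plvap, the diaphragm protein of endothelial fenestrae and caveolae, rose by 0.49 ± 0.12 (SE, limma adjusted p = 0.011), Fli1, an ETS transcription factor, rose by 0.47 ± 0.13 (adjusted p = 0.020), and Ramp2, the partner of the adrenomedullin receptor, fell by 0.40 (adjusted p = 0.013). The Fli1 call was lost without mouse 15 (or 17), at 0.42 in both cases, and that of Ramp2 with equal totals (-0.23). With the ketone ester S1pr1, a sphingosine 1-phosphate receptor, was 1.03 lower on the log2 scale than under semaglutide (-1.03 ± 0.24 SE, limma adjusted p = 0.014), a call lost without mouse 21 (-0.91). Emcn, endomucin, was 0.51 higher (adjusted p = 0.042), but this was lost in 12 of 24 alternatives, 9 of them without 1 mouse (1, 3, 4, 5, 14, 15, 16, 21 or 22), with values down to 0.28. The summed normalized count of the 30 genes was 10913 to 13853 in vehicle, 10412 to 14014 in semaglutide and 10852 to 12440 in semaglutide + ketone ester mice.

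Of 11 capillary genes of lipid and gas exchange, Cav1, the coat protein of caveolae, was the 1 gene called. It was 1955 to 2266 normalized counts in vehicle, 1402 to 1752 in semaglutide and 2032 to 2394 in semaglutide + ketone ester mice, with no overlap of semaglutide with the others (log2 -0.40 ± 0.085 SE and 0.47 ± 0.098 SE, limma adjusted p = 0.0060 and 0.0080). Both calls were lost with equal totals (-0.23 and 0.23), and the second with only 2 groups fitted. The sum of the 11 genes was 11868 to 29180 in semaglutide mice, the highest being mouse 16, in which 7 adipocyte markers summed to 11160 against 151 to 1234 in the other semaglutide mice. Cd36 and Fabp4 of the capillary list are known to be expressed by adipocytes too, and the part of adipocytes in the capillary sum was not tested.

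Among 11 tested tip cell and Notch genes, 2 fell under semaglutide, the Notch targets Hes1 (log2 -0.66 ± 0.17 SE, limma adjusted p = 0.017) and Heyl (-0.42 ± 0.11 SE, adjusted p = 0.018), and 0 rose. Both were lost with equal totals (-0.49 and -0.25). Heyl was 0.83 ± 0.13 higher with the ketone ester than under semaglutide (adjusted p = 0.0025). Heyl is also expressed by mural cells. Among 8 tested arterial and venous genes, 2 rose under semaglutide, the venous adhesion molecule Selp (0.93 ± 0.21 SE, limma adjusted p = 0.0085) and the arterial ligand Efnb2 (0.38 ± 0.11 SE, adjusted p = 0.027), the latter lost without any one of mice 1 to 4 or 14, with values from 0.32 to 0.38. With the ketone ester relative to semaglutide the arterial connexin genes Gja5 (0.86 ± 0.21 SE) and Gja4 (0.77 ± 0.20 SE) rose, and arterial Sema3g (-0.64 ± 0.17 SE) and venular Ackr1 (-0.51 ± 0.15 SE) fell (limma adjusted p = 0.018, 0.020, 0.020 and 0.030). The calls of Gja5, Gja4 and Sema3g were lost without mouse 21 or 22 (0.66 to 0.92, and -0.60 to -0.54), those of Gja5 and Gja4 also with equal totals, those of Gja4 and Sema3g also with only 2 groups fitted, and that of Ackr1 in 10 of 24 alternatives, among them edgeR and DESeq2.

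Of 11 tested pericyte and vascular smooth muscle genes, 4 fell under semaglutide and 0 rose, with a median log2 fold change of -0.47, and with the ketone ester relative to semaglutide 2 rose and 0 fell, with a median of 0.32. Rgs5, a pericyte gene, was 4278 to 5851 normalized counts in vehicle, 2378 to 3931 in semaglutide and 4177 to 5131 in semaglutide + ketone ester mice. Semaglutide mice did not overlap with either other group. Rgs5 fell by 0.62 on the log2 scale (limma adjusted p = 0.0093) and rose by 0.60 (adjusted p = 0.026), the second call being lost with equal totals, with 2 groups fitted and without mouse 15, 17, 21 or 22 (0.53 to 0.60). Acta2, smooth muscle actin, fell by 0.56 (adjusted p = 0.023), a call lost with equal totals (-0.39) and without mouse 1, 3 or 15 (-0.51 to -0.49). Notch3, a mural cell Notch receptor, was 0.50 higher with the ketone ester (adjusted p = 0.030), a call lost in 10 of 24 alternatives, 7 of them without one of mice 14 to 17, 19, 21 or 22 (0.44 to 0.53). Of 6 lymphatic endothelial markers 0 passed in either comparison, and Lyve1 ranged from 76.7 to 150 normalized counts in vehicle, 84.4 to 136 in semaglutide and 56.5 to 99.0 in semaglutide + ketone ester mice.

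**Figure D4:**
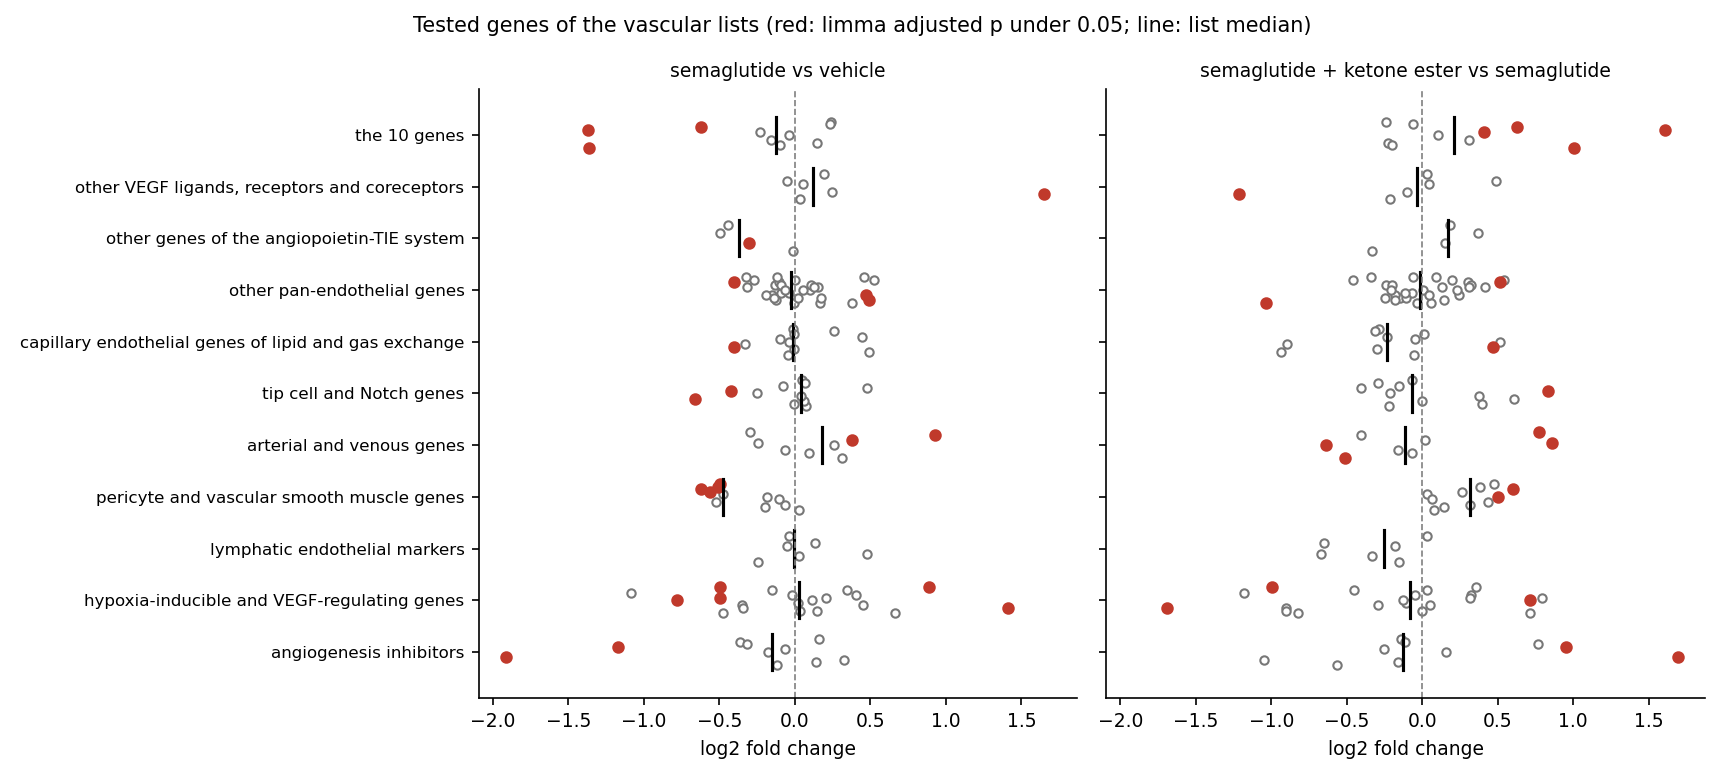
Log2 fold changes (horizontal axes) of every tested gene of the vascular lists, 1 point per gene, for semaglutide vs vehicle and semaglutide + ketone ester vs semaglutide, with list medians as lines and genes past the limma threshold in red. The 30 pan-endothelial genes centre on 0 in both panels (medians -0.023 and -0.015), while pericyte and smooth muscle genes lie mostly left of 0 in the first and right of 0 in the second.

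Of 20 hypoxia-inducible and VEGF-regulating genes, 2 rose and 3 fell under semaglutide, with a median of 0.029, where 25.1% of all genes tested differed. Egln3, a hypoxia-induced prolyl hydroxylase, was 1.41 ± 0.42 higher (SE, limma adjusted p = 0.030) and Bnip3, a hypoxia-inducible mitophagy receptor, 0.89 ± 0.23 higher (adjusted p = 0.017), while Esrra, given above, and the kinase gene Pdk1 (-0.50 ± 0.12, adjusted p = 0.011) fell. The Egln3 call was lost without any one of mice 2, 3 or 14 to 17 (1.18 to 1.46), and its range in semaglutide mice, 746 to 3981 normalized counts, overlapped with that of vehicle mice, 494 to 1190. With the ketone ester Egln3 and Bnip3 were -1.69 ± 0.49 and -0.99 ± 0.27 relative to semaglutide (limma adjusted p = 0.032 and 0.024), both lost with only 2 groups fitted and without mouse 15, 17, 21 or 22 (Egln3 also without 14, 16 or 19 and with no filter), when the values came as near to 0 as -1.46 for Egln3 and -0.88 for Bnip3. Of 10 tested angiogenesis inhibitors 2 fell under semaglutide and 2 rose with the ketone ester, and they were the same 2 genes. Serpinf1, pigment epithelium-derived factor, had values of -1.91 ± 0.31 and 1.69 ± 0.36 (limma adjusted p = 0.0016 and 0.0088), and Col18a1, whose C-terminal fragment is endostatin, -1.17 ± 0.15 and 0.95 ± 0.18 (adjusted p = 0.00045 and 0.0049).

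Markers of some other cell types differed between the treatment groups. Fibroblast markers fell under semaglutide in 7 of 8 genes and rose with the ketone ester in 6 of 8, with medians of -1.37 and 1.45. Their summed normalized count was 6291 to 13818 in vehicle, 5684 to 7511 in semaglutide and 8061 to 12915 in semaglutide + ketone ester mice, and none was at 0. Tendon markers summed to 573 to 4635, 310 to 1694 and 2281 to 2723 in the same order, with 3 of 5 lower under semaglutide and Kera at 0 in mice 15 and 16, and with the ketone ester relative to semaglutide 2 of 5 were higher and 1 lower. Erythroid markers summed to 1356 to 2291, 50.5 to 3148 and 2849 to 5558 in that order. Of these 5 markers, 0 passed for semaglutide vs vehicle, and 4 were higher with the ketone ester than under semaglutide. Alas2 was at 0 in mouse 14 and Hbb-bt at 0 in mouse 16. Fibre markers were lower under semaglutide in 3 of 7 and higher with the ketone ester in 4 of 7. Of 9 tested leukocyte and platelet, 7 adipocyte and 5 Schwann cell markers 0 passed in either of these comparisons. Stromal and perivascular cells express Angpt1, Serpinf1 and Col18a1 as well, and the part of cell composition in the results for the 10 genes was not tested.

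Vehicle mouse 1 had a fibroblast sum of 6291 and a tendon sum of 573, within the semaglutide ranges. Its pericyte and vascular smooth muscle sum, 16170, was above the semaglutide range of 10120 to 13081. The sum of the 30 pan-endothelial genes in this mouse, 13853, was within the semaglutide range of 10412 to 14014. Vegfb (2000) and Angpt1 (328) of vehicle mouse 1 were above every semaglutide mouse, and its Aplnr (85.8) was near that of mouse 13 (82.2). Semaglutide mouse 13 had the highest fibroblast (7511), tendon (1694) and erythroid (3148) sums of its group, with the highest Angpt1 and Aplnr of that group and a Vegfb of 1232, below that of mouse 14. Without vehicle mouse 1, Vegfb, Angpt1 and Aplnr fell by 0.60, 1.33 and 1.45 on the log2 scale under semaglutide (limma adjusted p = 0.0060, 0.0019 and 0.0027).

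**Figure D5:**
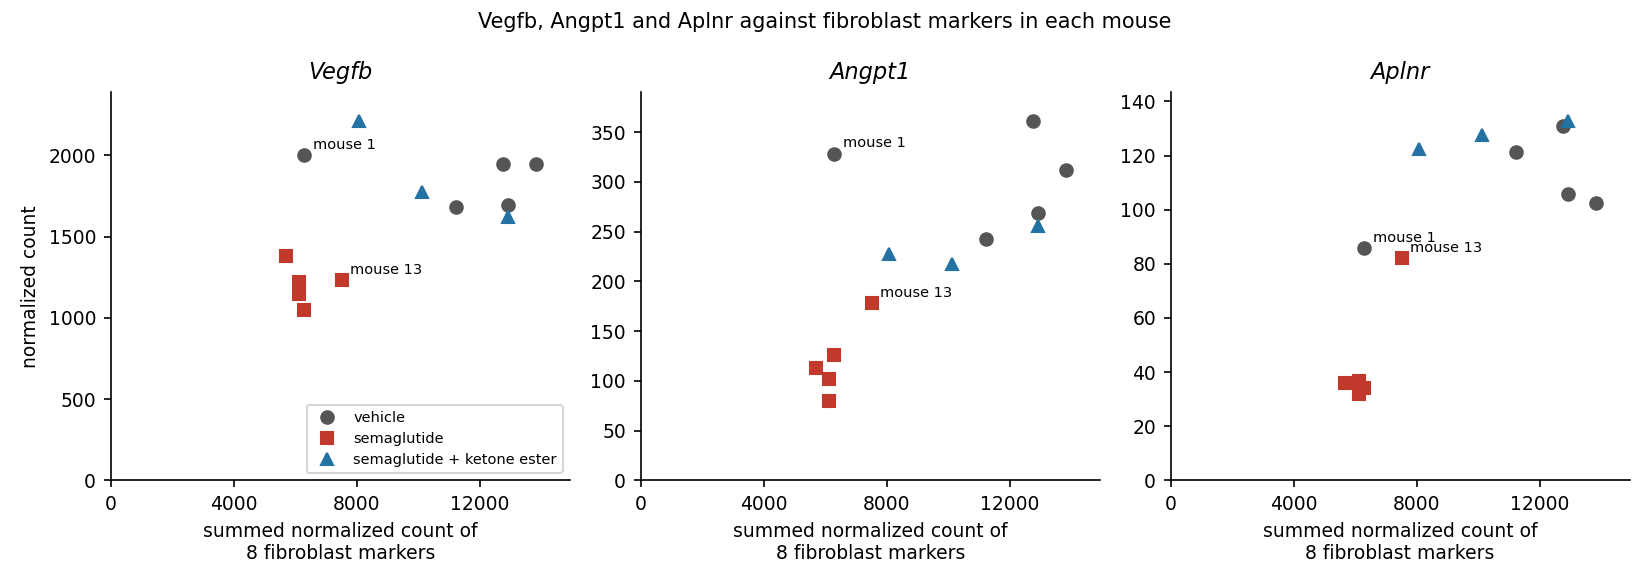
Normalized counts of Vegfb, Angpt1 and Aplnr (vertical axes) against the summed normalized count of 8 fibroblast markers (horizontal axes) in each of 13 mice. Vehicle mouse 1 lies at the semaglutide level of fibroblast markers (6291) with vehicle levels of Vegfb and Angpt1. Its pericyte and vascular smooth muscle sum, not drawn, was 16170, above the semaglutide range of 10120 to 13081. For Aplnr vehicle mouse 1 is the lowest vehicle mouse, and semaglutide mouse 13 lies near it. The part of cell composition was not tested.

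The genes whose log2 values were most like those of Cdh5 over the 13 mice, leaving out the set itself, were Mrvi1 (Pearson's r = 0.87), Atpif1 (0.86) and Elf2 (0.84). Those most like Vegfa were Slc47a1 (0.86), Kdm4a (0.84) and Ciapin1 (0.83). These are descriptions over mice that share treatment groups, and no test was made.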

How the data were processed

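Gastrocnemius RNA of 13 mice was sequenced as stranded mRNA libraries with paired 59-base reads, all with the same batch date. The authors deposited 1 table of normalized counts per gene, a signal in which each value was a whole read count divided by a factor of its library. Whole reads were recovered for 100% of values within 0.01 of a whole number, and 0 value columns belonged to no sample. DRAGEN, DESeq2 and mm10 are named in the submitters' processing notes, and per the study's methods reads were aligned to mm10 with DRAGEN. The gene annotation and the strand setting of the counting are not given in the sources used here.

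Groups came from the labels. Overlap of values between groups was looked at for the listed genes only, and its share over all genes was not counted. Ratios of 2 genes were formed after the values were known and were not tested. Genes with a mean of at least 10 were tested on log2(normalized count + 1) with limma 3.58.1 in R 4.3.3 (1 mean per group, 3 groups, Benjamini-Hochberg adjustment, threshold 0.05). The 95% intervals are the estimate ± 2.17 SE, from limma's moderated t with 12.4 degrees of freedom, and are not adjusted for the number of genes. Alternatives numbered 24, among them edgeR 4.0.16 and DESeq2 1.42.0 on the recovered reads and 13 fits without 1 mouse. A limma mean-variance trend was added after seeing the data. The fitting was tested on simulated data. Depth was 15319471 to 23498162 reads on genes per mouse, so that 3 reads, the limit a count of 0 allows, are 1.28e-05% to 1.96e-05% of a library. Such limits cover counting error only. The labels pair no mice across groups, and p-values measure the spread between mice. No 2 libraries of a group agreed within sampling noise.

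All 10 genes are named. Of each other list, up to 2 genes with the largest rise and 2 with the largest fall among those past the threshold in a comparison are named, and otherwise the 1 or 2 with the highest level. Angpt2 and the genes below the minimum were named outside this rule. The genes and lists were chosen with earlier results of these data known. Gene positions and exon lengths are from GENCODE M21, and upstream sequences from RefSeq.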

Additional observations from a re-analysis of the deposited data

Results flagged for a closer look

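In each group of 5 mice, the highest and the lowest value of each of the 10 genes was compared with its nearest neighbour by Dixon's ratio of that gap to the group's range. Of 20 gene and group pairs, 2 exceeded the critical value of 0.71 for 5 samples, and chance gives about 1 in 20. Flt1 in vehicle mouse 1 was 1702 normalized counts, with the next vehicle mouse at 1293 (ratio 0.779). Aplnr in semaglutide mouse 13 was 82.2 normalized counts, with the next semaglutide mouse at 36.7 (ratio 0.909). Without vehicle mouse 1 the Flt1 value for semaglutide vs vehicle was 0.33 (limma adjusted p = 0.078). Without mouse 13 the Aplnr value for semaglutide vs vehicle was -1.61.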

How the results depend on the processing

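Over 24 alternatives the falls of Vegfb, Angpt1 and Aplnr under semaglutide stayed between -0.67 and -0.45, -1.57 and -1.19, and -1.61 and -1.20, and their rises with the ketone ester between 0.39 and 0.72, 0.77 and 1.23, and 1.37 and 1.85, all past the threshold. The number of the 10 genes called for semaglutide vs vehicle was 5 with equal totals, where 4187 of all 12319 genes tested were called. With equal totals the value for semaglutide vs vehicle reversed to 0.015 for Cdh5, 0.077 for Vegfa and 0.14 for Tie1 (0.016 with array weights), that of Tie1 for semaglutide + ketone ester vs semaglutide to -0.13, and that of Vegfb for semaglutide + ketone ester vs vehicle to -0.060 (-0.0063 with array weights). Flt1 for semaglutide + ketone ester vs vehicle was 0.0030 by edgeR and 0.012 with TMM factors. Without 1 mouse, the semaglutide + ketone ester vs vehicle values crossed 0 for Pecam1 (-0.16 to 0.0036), Flt1 (-0.080 to 0.093), Tie1 (-0.026 to 0.15) and Vegfb (-0.12 to 0.10), as did Tie1 for semaglutide vs vehicle (-0.091 to 0.038). None of these values was called. Genes called for semaglutide vs vehicle numbered 4847 with array weights. For semaglutide + ketone ester vs semaglutide they numbered 4195 with equal totals, 4279 with array weights, 751 with only 2 groups fitted and 862 to 3954 without 1 mouse. For semaglutide + ketone ester vs vehicle they numbered 4 with no filter, 45 by edgeR and with a trend, 172 by DESeq2, 205 with array weights and 1 to 77 without 1 mouse. The causes were not tested. No paired analysis was possible because the mouse numbers in the labels are not shared between groups. With 3 mice in 1 group, small differences could not be resolved.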
